A study of Mus musculus with 60 samples.

Results

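The livers of mice given 56Fe ions were compared directly with the livers of mice given 16O ions, 2 months after irradiation. The comparison holds 6 of the 60 RNA-Seq libraries of the series, 3 from 56Fe mice and 3 from 16O mice, chosen by the ion and time in their labels. All were left liver lobes of C3H mice (C3H/HeNCrl males, 8 to 10 weeks old when the study began), and each library came from a different mouse. Both groups received a total body dose of 0.2 Gy, the 56Fe mice at 600 MeV/n and the 16O mice at 1 GeV/n, so that the ions differed in energy per nucleon as well as in kind. Non-irradiated or sham-irradiated controls and mice given 28Si ions at 0.2 Gy, 3 each at 2 months, entered the same fit and are given for reference. Expression is in RPKM (reads scaled to transcript length and to the mapped reads of the library), which is per length, summed over the transcripts of each gene.

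Heavy ions deposit their energy in dense tracks, and the livers of C3H mice are prone to hepatocellular carcinoma. The liver's hepatocytes run urea synthesis, gluconeogenesis and bile acid synthesis, and they secrete most plasma proteins, which are folded in the endoplasmic reticulum. They are rich in mitochondria, whose own small genome encodes core subunits of the respiratory chain. p53 targets, antioxidant genes and chaperone genes are the classic read-outs of stress in such cells.

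Libraries held 14775718 to 19872620 mapped read pairs in the 56Fe group and 16770495 to 21248537 in the 16O group. Annotated transcripts took 56.78%, 56.97% and 60.93% of the mapped reads in the 56Fe libraries, against 43.42%, 48.74% and 59.38% in 16O replicates 1, 2 and 3. The nuclear RNA Malat1 held 2.14%, 1.66% and 1.15% of the transcript reads in the same 3 16O libraries and 0.960% to 1.03% in the 56Fe libraries. Thus 16O replicates 1 and 2 stood apart from all 3 56Fe libraries and from 16O replicate 3. Results are therefore also given with 16O represented by replicate 3 alone, and with the share of reads in transcripts as a covariate, both chosen after the data were seen. The hepatocyte marker Alb was listed at 16634, 17485 and 17571 RPKM in the 3 56Fe mice and 10209, 14705 and 18944 RPKM in the 3 16O mice. Marker sums for other tissues were low, at 9.36 to 16.5 RPKM for the 13 pancreas acinar genes and 1.56 to 3.87 RPKM for the 15 muscle genes over the 6 libraries.

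Of 11510 genes tested, 43 (0.374%) differed between 56Fe and 16O livers at an adjusted p of at most 0.05 in limma, 24 higher in 56Fe (0.209%) and 19 lower (0.165%). At a fold of at least 2, 9 genes were higher in 56Fe (0.0782%) and 3 were lower (0.0261%). The 9 were the mitochondrially encoded mt-Nd4l, mt-Atp8, mt-Nd4, mt-Nd2 and mt-Nd5, together with Nr0b2, Slc35a3, Gas1 and Etnppl, and the 3 were Pfkfb3, Gpcpd1 and Socs2. An unadjusted p under 0.05 was reached by 1810 genes (15.7%). The median log2 fold change over all genes was 0.0017.

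These calls depended on single libraries. Without 16O replicate 3 the count rose from 43 to 1089 genes, and without 56Fe replicate 3 it fell to 1 gene, Etnppl. It was 4 without 56Fe replicate 1, 21 without 56Fe replicate 2, 7 without 16O replicate 1 and 3 without 16O replicate 2. With 16O replicate 3 alone, the 16O arm held 1 library and its spread was taken from the other groups, so that the absence of calls there (0 in limma, 929 at an unadjusted p under 0.05) says little, and only the sizes of the differences are used below. With the share of reads in transcripts as a covariate 1 gene passed (1088 at an unadjusted p under 0.05). Some differences kept nearly their size: Nr0b2 1.52 against 1.56 (log2), Bbc3 0.71 against 0.73, Dusp6 0.81 against 0.83, Socs2 -1.06 against -1.08 and Rpl10 -0.87 against -0.92. Others shrank more, such as mt-Atp8 (1.06 against 1.27) and Pdia4 (0.51 against 0.64). These genes are examples and not a summary of the 43. All 43 genes kept their direction in both of these fits. After scaling, the groups did not overlap in any of the 43. Their direction against 16O replicate 3 alone was thus largely fixed beforehand.

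**Figure D1:**
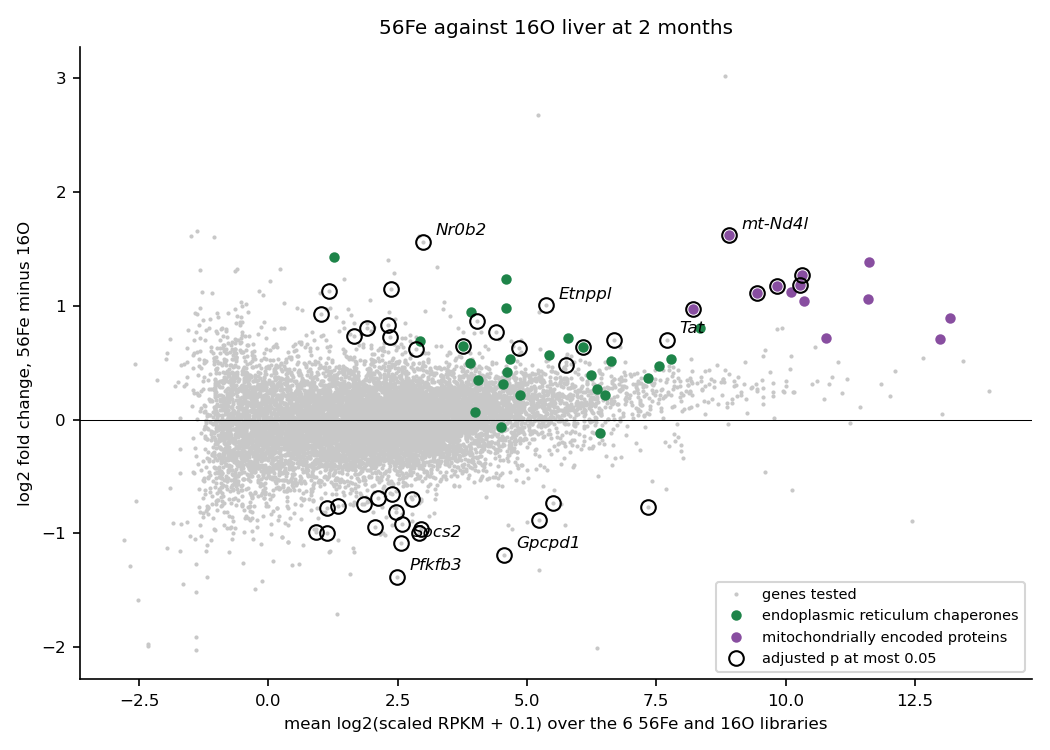
Each point is a gene, with its mean log2 level over the 6 libraries on the x axis and its log2 fold change (56Fe minus 16O) on the y axis; black rings mark the 43 genes with an adjusted p of at most 0.05. All 13 mitochondrially encoded genes (purple) and 24 of the 26 endoplasmic reticulum chaperone genes (green) lie above 0.

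The mitochondrial genome gave the most numerous related calls. It encodes 13 proteins of the respiratory chain and ATP synthase, and all 13 mRNAs were higher in 56Fe (50.2% of all genes were), with a median log2 fold change of 1.11. For 12 of the 13 every 56Fe mouse stood above every 16O mouse, compared with 9.24% of all genes tested. As a share of transcript reads, and counting every mitochondrial gene, the groups overlapped. That share was 8.36%, 10.6% and 8.76% in 56Fe replicates 1, 2 and 3. It was 5.55%, 7.47% and 9.17% in 16O replicates 1, 2 and 3. In limma 6 of the 13 passed, all higher in 56Fe (0.209% of all genes were called higher). mt-Nd4l, a complex I subunit, measured 748, 893 and 916 RPKM in the 3 56Fe mice and 198, 268 and 369 RPKM in the 3 16O mice. The 3 56Fe mice were all above the 16O mice, and the difference was 1.62 ± 0.21 (log2, SE, adjusted p = 0.00817, limma). Its control livers read 720.4, 594 and 584 RPKM and its 28Si livers 300.4, 225 and 222 RPKM, so the controls lay between the ions and the 28Si mice overlapped the 16O mice.

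mt-Atp8, an ATP synthase subunit, measured 1854, 2077 and 2076 RPKM in the 3 56Fe mice and 472, 898 and 1249.9 RPKM in the 3 16O mice, with a log2 difference of 1.27 ± 0.24 (SE, adjusted p = 0.0443, limma). The complex I subunits mt-Nd4 and mt-Nd2 differed by 1.18 ± 0.21 and 1.17 ± 0.21 (log2, SE, adjusted p = 0.0374 for both, limma). The groups did not overlap for any of these genes, and 16O replicate 1 was the lowest library each time. mt-Nd5 measured 931, 1138 and 1045 RPKM in the 3 56Fe mice and 391.9, 439.7 and 599 RPKM in the 3 16O mice (log2 difference 1.11 ± 0.21, adjusted p = 0.0443, limma). mt-Nd6, the only one of these proteins encoded on the light strand, measured 387, 464 and 408 RPKM in the 3 56Fe mice and 176, 209 and 249 RPKM in the 3 16O mice (log2 difference 0.97 ± 0.19, adjusted p = 0.0462, limma). mt-Nd6 overlaps mt-Nd5 on the other strand, and mt-Nd4l overlaps mt-Nd4 and mt-Atp8 overlaps mt-Atp6 on the same strand, so that their reads may be shared.

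The remaining 7 did not pass. The log2 differences of mt-Atp6 (1.38, adjusted p = 0.0521, limma) and of mt-Cytb (1.12, adjusted p = 0.0524, limma) were close to the threshold. Those of the cytochrome oxidase subunits mt-Co1, mt-Co2 and mt-Co3 were 0.89, 1.06 and 0.70. mt-Nd3 was the one member whose groups overlapped, at 2109, 2487 and 2304 RPKM in the 3 56Fe mice and 800.0, 1416 and 2251 RPKM in the 3 16O mice. In the 16O group, replicate 1, with the lowest share of reads in transcripts, had the lowest RPKM of all 13 mRNAs, and replicate 3, with the highest share, had the highest. The 28Si group had another order. Its replicates 1, 2 and 3 had summed RPKM of the 13 of 38159, 28548 and 24203, at shares of 51.46%, 49.71% and 62.27%. In the 56Fe and control groups the shares spanned 56.78% to 60.93% and 54% to 60.17%. There the library with the highest share did not have the highest sum. These orders within 3 libraries are descriptions only. With 16O replicate 3 alone the 13 stayed higher in 56Fe, with a median of 0.74, and with the covariate the median was 1.06. Leaving out 1 of the 6 libraries gave 0 to 13 calls among the 13, and 13 without 16O replicate 3. The part of the library difference in this result was not tested. Against control, the median over the 13 was 0.27 for 56Fe and -0.84 for 16O.

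The 75 nuclear genes for respiratory chain and ATP synthase subunits differed less. The log2 difference was above 0 for 65 and below 0 for 10, none passed in limma (12 at an unadjusted p under 0.05, and 0 with limma-voom), and the median was 0.15. Over all genes tested 15.7% had an unadjusted p under 0.05, a share near that of this list. With 16O replicate 3 alone the median was -0.04, with 21 of 75 above 0. ATP synthase subunit Atp5b gave a log2 difference of 0.27 and the cytochrome oxidase-associated Ndufa4 one of 0.43.

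**Figure D2:**
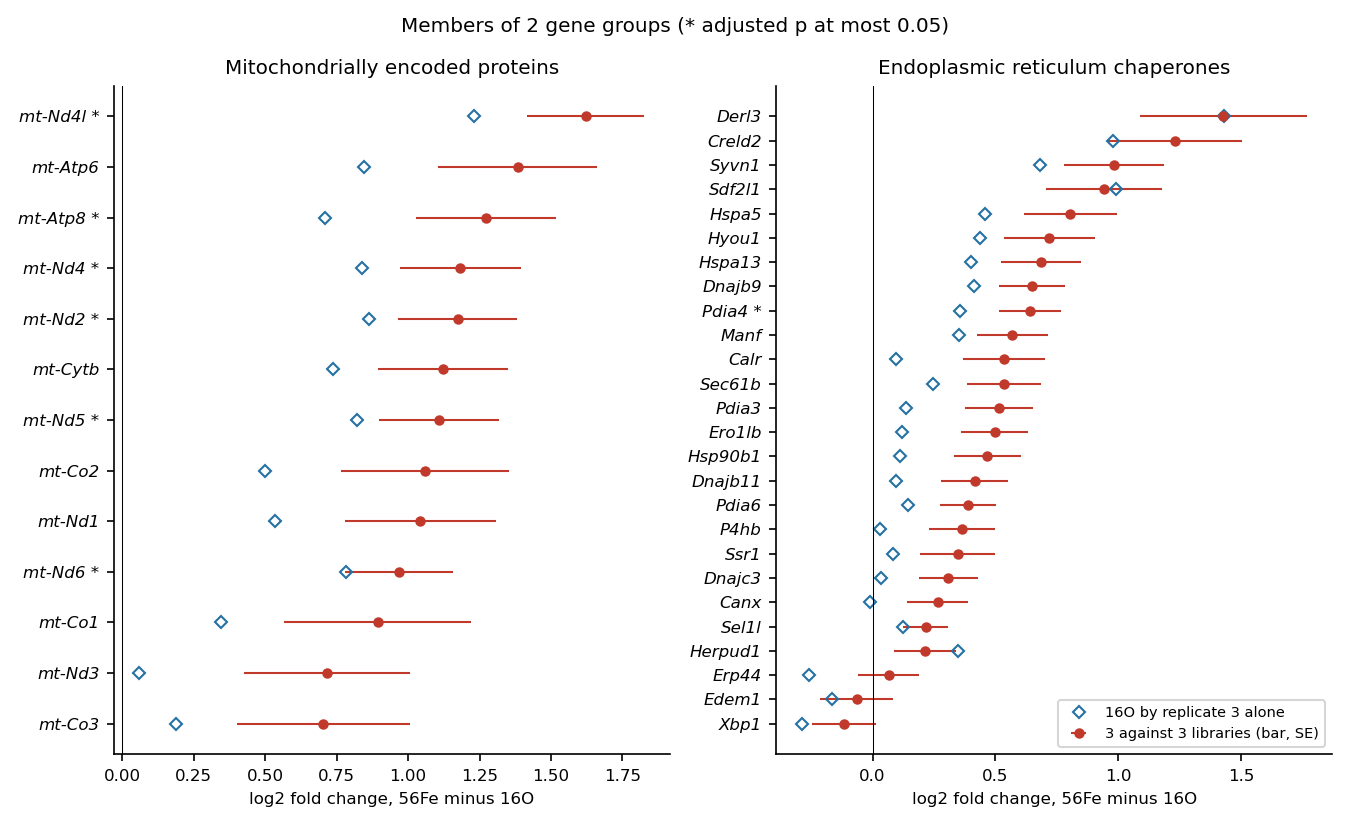
Log2 fold change (56Fe minus 16O, x axis) of each mitochondrially encoded mRNA (left) and each endoplasmic reticulum chaperone gene (right); red points with SE bars come from 3 against 3 libraries, and open blue diamonds set the 3 56Fe libraries against 16O replicate 3 alone. Most diamonds lie nearer to 0 than the red points, with medians of 0.74 and 0.14 against 1.11 and 0.51.

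Chaperones of the endoplasmic reticulum formed the other group in which the mice rarely overlapped. These proteins fold and quality-check secreted proteins, and their genes are induced together by the unfolded protein response. Of 26 listed genes, all tested, 24 were higher in 56Fe and for 20 the 3 56Fe mice stood above the 3 16O mice after scaling (9.24% of all genes). The median log2 fold change was 0.51. In limma 1 of the 26 passed, Pdia4, 21 had an unadjusted p under 0.05, and limma-voom called 3. Over all genes tested, limma called 0.374%, and 15.7% had an unadjusted p under 0.05.

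Pdia4, a protein disulfide isomerase, measured 90.5, 77.5 and 89.9 RPKM in the 3 56Fe mice and 48.7, 46.6 and 68.4 RPKM in the 3 16O mice (log2 difference 0.64 ± 0.13, SE, adjusted p = 0.0499, limma). Hspa5, the luminal HSP70 known as BiP, measured 449, 406 and 462 RPKM in the 3 56Fe mice and 255, 177 and 327 RPKM in the 3 16O mice (log2 difference 0.80 ± 0.19, adjusted p = 0.0966, limma). In both genes each 56Fe mouse was above each 16O mouse, and 16O replicate 3 was the nearest to the 56Fe mice. The calcium-binding chaperone Calr measured 287, 251 and 266 RPKM in the 3 56Fe mice and 147, 156 and 256 RPKM in the 3 16O mice and differed by 0.54 ± 0.17 (adjusted p = 0.159, limma). Hsp90b1, the luminal HSP90, measured 237, 204 and 234 RPKM in the 3 56Fe mice and 132, 143 and 213 RPKM in the 3 16O mice and differed by 0.47 ± 0.14 (adjusted p = 0.143, limma). For Calr and Hsp90b1 16O replicate 3 was above the lowest 56Fe mouse as deposited and just below it once scaled, whereas 16O replicates 1 and 2 were far below.

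The endoplasmic reticulum stress element, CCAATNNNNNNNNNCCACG, is the classic promoter sequence through which the unfolded protein response acts on these genes. It was searched on both strands of the 250 bases before the start of each gene in RefSeq promoters (GRCm38.p6). It was present in 35 of 27025 gene symbols (0.13%), and in 9 of the 22 listed chaperone genes with a promoter in the table (40.9%), namely Hspa5, Hsp90b1, Calr, Canx, Pdia6, Dnajc3, Creld2, Syvn1 and Derl3. The list and the element are linked by textbook knowledge, so the share describes the list and is no test of these livers. The promoters of 4 of the 9 are shown because they include the most abundant member (Hspa5), one with 2 copies (Hsp90b1) and 2 with large differences between the ions (Creld2 and Syvn1). They lie at chr2:34771840-34772089 (plus strand), chr10:86705445-86705694 (minus strand), chr15:88819396-88819645 (plus strand) and chr19:6046326-6046575 (plus strand), each read 5′ to 3′ in the direction of the gene, with the fixed bases of the element in capitals.
Hspa5: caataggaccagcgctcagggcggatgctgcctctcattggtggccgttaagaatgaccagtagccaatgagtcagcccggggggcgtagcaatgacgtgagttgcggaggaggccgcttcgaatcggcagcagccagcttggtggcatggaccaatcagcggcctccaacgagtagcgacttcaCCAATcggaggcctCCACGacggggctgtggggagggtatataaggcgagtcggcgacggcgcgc
Hsp90b1: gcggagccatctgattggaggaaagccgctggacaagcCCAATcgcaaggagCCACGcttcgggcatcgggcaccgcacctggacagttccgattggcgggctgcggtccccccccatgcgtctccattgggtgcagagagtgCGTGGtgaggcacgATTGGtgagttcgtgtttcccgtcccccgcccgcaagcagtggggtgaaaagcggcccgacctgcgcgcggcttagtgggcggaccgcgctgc
Creld2: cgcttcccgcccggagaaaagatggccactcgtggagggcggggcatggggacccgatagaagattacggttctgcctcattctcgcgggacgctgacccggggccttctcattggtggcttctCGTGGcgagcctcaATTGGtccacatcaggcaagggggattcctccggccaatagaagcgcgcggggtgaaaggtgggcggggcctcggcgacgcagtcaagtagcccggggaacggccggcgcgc
Syvn1: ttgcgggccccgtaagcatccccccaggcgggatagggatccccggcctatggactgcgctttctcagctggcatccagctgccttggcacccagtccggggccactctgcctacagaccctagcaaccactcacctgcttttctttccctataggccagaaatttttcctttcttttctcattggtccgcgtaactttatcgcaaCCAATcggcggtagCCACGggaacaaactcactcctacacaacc
The element began 65 bases before the start of Hspa5, 44 before that of Syvn1, 126 before that of Creld2, and 212 and 107 before that of Hsp90b1. It was on the opposite strand in Creld2 and in the copy of Hsp90b1 nearer the start.

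Creld2, a secreted stress-induced protein, measured 38.7, 30.8 and 43.5 RPKM in the 3 56Fe mice and 20.6, 9.30 and 19.3 RPKM in the 3 16O mice, a log2 difference of 1.23 ± 0.27 (adjusted p = 0.0735, limma). Syvn1, the ubiquitin ligase of endoplasmic reticulum-associated degradation, measured 35.1, 29.1 and 39.7 RPKM in the 3 56Fe mice and 20.01, 11.2 and 21.9 RPKM in the 3 16O mice, a log2 difference of 0.98 ± 0.20 (adjusted p = 0.0558, limma). Derl3, a channel component of the same pathway, measured 4.31, 3.76 and 3.68 RPKM in the 3 56Fe mice and 2.27, 0.764 and 1.42 RPKM in the 3 16O mice (log2 difference 1.43 ± 0.34, adjusted p = 0.0977, limma). These 3 were named after their values were seen, and none passed, although each had all 56Fe mice above all 16O mice. Xbp1, the transcription factor of the response, measured 76.6, 89.5 and 84.6 RPKM in the 3 56Fe mice and 88.97, 74.6 and 104 RPKM in the 3 16O mice, with overlapping groups, and Edem1 also overlapped (log2 differences -0.12 and -0.06).

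With 16O replicate 3 alone, 22 of the 26 chaperone genes had a difference above 0, with a median of 0.14, and with the covariate the median was 0.34. Without 16O replicate 3, 19 passed. Creld2 and Syvn1 kept differences of 0.98 and 0.68 against 16O replicate 3, whereas those of Calr and Hsp90b1 were 0.10 and 0.11. The share of reads in transcripts moved with this group too, and its part in the result was not tested. Among the 21 listed cytosolic heat shock chaperones tested, 19 had a difference above 0 and none passed in limma (9 at an unadjusted p under 0.05, 0 with limma-voom), with a median of 0.17. The share of all genes with an unadjusted p under 0.05 was 15.7%.

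Among liver metabolic genes, Etnppl was the most stable call. It encodes the lyase that breaks down phosphoethanolamine, at chromosome 3, 130617448 to 130637521 (GRCm38). Etnppl measured 62.1, 50.3 and 65.6 RPKM in the 3 56Fe mice and 24.95, 28.9 and 32.5 RPKM in the 3 16O mice. All 3 56Fe mice were above the controls (43.4, 35.4 and 41.5 RPKM) and all 3 16O mice were below them. The log2 difference was 1.01 ± 0.10 (SE, n = 3 per group, adjusted p = 0.00129, limma), and Etnppl was the only one of the 43 genes to pass whichever of the 6 libraries was left out, with an adjusted p of at most 0.0212. Against 16O replicate 3 alone its difference was 0.89.

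Nr0b2 encodes SHP, the nuclear receptor that bile acids induce through FXR and that represses bile acid synthesis (chromosome 4, 133553376 to 133556536). It measured 15.2, 10.9 and 15.6 RPKM in the 3 56Fe mice and 4.63, 4.70 and 4.11 RPKM in the 3 16O mice, and the lowest 56Fe mouse was above the highest 16O mouse by more than the spread of either group. The log2 difference was 1.56 ± 0.24 (adjusted p = 0.0165, limma), with controls at 12.5, 10.8 and 6.06 RPKM and 28Si mice at 2.56, 2.82 and 5.20 RPKM. Cyp7a1 and Cyp8b1, the bile acid synthesis enzymes that SHP represses, gave log2 differences of -0.90 and 0.63 (adjusted p = 0.168 and 0.131, limma), named after their values were seen. Of 27 listed bile acid genes tested, 19 had a difference above 0 and 8 below, and Nr0b2 was the 1 that passed. With 0.374% of all genes called, 1 call is too few to read as a result about the list.

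Tat, the glucocorticoid-inducible aminotransferase that starts tyrosine breakdown, measured 246, 289.8 and 274 RPKM in the 3 56Fe mice and 162, 133 and 197 RPKM in the 3 16O mice. No 16O mouse reached the 56Fe mice, and the difference was 0.70 ± 0.14 (adjusted p = 0.0443, limma). The controls read 144, 153 and 179 RPKM, within the range of the 16O mice. Tat was the 1 member that passed among 27 periportal and urea cycle genes, of which 26 had a difference above 0 and 11 did not overlap (background 9.24%), with a median of 0.31. The urea cycle enzymes Ass1 and Cps1 gave 0.42 and 0.31, neither past the threshold. With 16O replicate 3 alone the periportal median was 0.06. Tat also was the only call among 21 gluconeogenesis genes (19 above 0, median 0.25), where Pck1 gave 0.40 and Fbp1 0.38, and among 18 hepatocyte markers (17 above 0, median 0.25, and -0.03 with 16O replicate 3 alone). Since 0.374% of all genes were called, a single call is too few to read as a result about any of these lists. Cebpa, a transcription factor that maintains hepatocyte identity, measured 128, 120.5 and 150.2 RPKM in the 3 56Fe mice and 71.5, 71.9 and 97.5 RPKM in the 3 16O mice (log2 difference 0.70 ± 0.13, adjusted p = 0.0391, limma).

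The remaining named genes higher in 56Fe had varied roles. Bbc3 encodes PUMA, a pro-apoptotic p53 target. It measured 6.91, 6.27 and 6.43 RPKM in the 3 56Fe mice and 3.76, 3.60 and 4.11 RPKM in the 3 16O mice (log2 difference 0.73 ± 0.11, adjusted p = 0.0165, limma). It was the 1 call among 22 p53 targets tested, of which 15 had a difference above 0 and 3 had every 56Fe mouse above every 16O mouse. Over all genes, 0.374% were called and 9.24% had every 56Fe mouse above every 16O mouse. A single call among 22 is too few to read as a result about the list. The p53 antagonist Mdm2 gave -0.11 (adjusted p = 0.777, limma). Dusp6, a phosphatase of ERK induced by ERK itself, measured 5.69, 7.09 and 7.37 RPKM in the 3 56Fe mice and 3.60, 3.46 and 3.80 RPKM in the 3 16O mice (log2 difference 0.83 ± 0.15, adjusted p = 0.0374, limma). It was the 1 call among 20 immediate early genes, 18 of which had a difference above 0 (median 0.24). That single call, too, is too few to read as a result about its list. Controls of Dusp6 read 6.50, 7.27 and 5.98 RPKM, within the range of the 56Fe mice.

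Gas1, a membrane-anchored co-receptor of hedgehog signalling, measured 3.22, 2.95 and 3.70 RPKM in the 3 56Fe mice and 1.30, 1.38 and 1.57 RPKM in the 3 16O mice (log2 difference 1.13 ± 0.16, adjusted p = 0.014, limma). The 56Fe mice were above both the 16O mice and the controls (1.54, 1.65 and 2.23 RPKM), and the difference was 1.04 against 16O replicate 3 alone. Smap1, a GTPase-activating protein for ARF6, measured 4.99, 4.27 and 5.66 RPKM in the 3 56Fe mice and 2.64, 2.67 and 2.87 RPKM in the 3 16O mice (log2 difference 0.80 ± 0.13, adjusted p = 0.0244, limma), and Pnrc1, a nuclear receptor coactivator, measured 17.2, 16.96 and 16.96 RPKM in the 3 56Fe mice and 9.74, 11.02 and 11.1 RPKM in the 3 16O mice (log2 difference 0.65 ± 0.11, adjusted p = 0.0308, limma). For both genes the 56Fe and 16O mice did not overlap. For Smap1 the transcript with the highest RPKM, Smap1_6, gave a log2 difference of 0.04, the gene's difference lay in Smap1_7, and limma-voom gave 0.55 for the gene (adjusted p = 0.099).

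Slc35a3, the Golgi transporter of UDP-N-acetylglucosamine, was the only gene called in 56Fe against control as well (0.00869% of genes). It measured 6.60, 7.74 and 9.05 RPKM in the 3 56Fe mice and 3.61, 3.17 and 3.29 RPKM in the 3 16O mice, and controls (3.03, 3.53 and 3.94 RPKM) lay with the 16O mice. The log2 difference was 1.15 ± 0.15 (adjusted p = 0.00817, limma). The difference lay in 1 short transcript, Slc35a3_7 (ENSMUST00000169530, 657 bases), listed at 3.68, 5.36 and 6.06 RPKM in 56Fe and 0.488, 0.0716 and 0 RPKM in 16O, which did not pass on its own (adjusted p = 0.117 over all transcripts, limma). The long main transcript Slc35a3_3 (5725 bases) measured 1.76, 1.71 and 2.004 RPKM in 56Fe and 1.37, 1.46 and 1.92 RPKM in 16O, with overlapping groups. Reads summed over the gene differed by 0.24 (log2) with limma-voom (adjusted p = 0.305), since RPKM summed over transcripts gives a short transcript more weight than its reads.

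**Figure D3:**
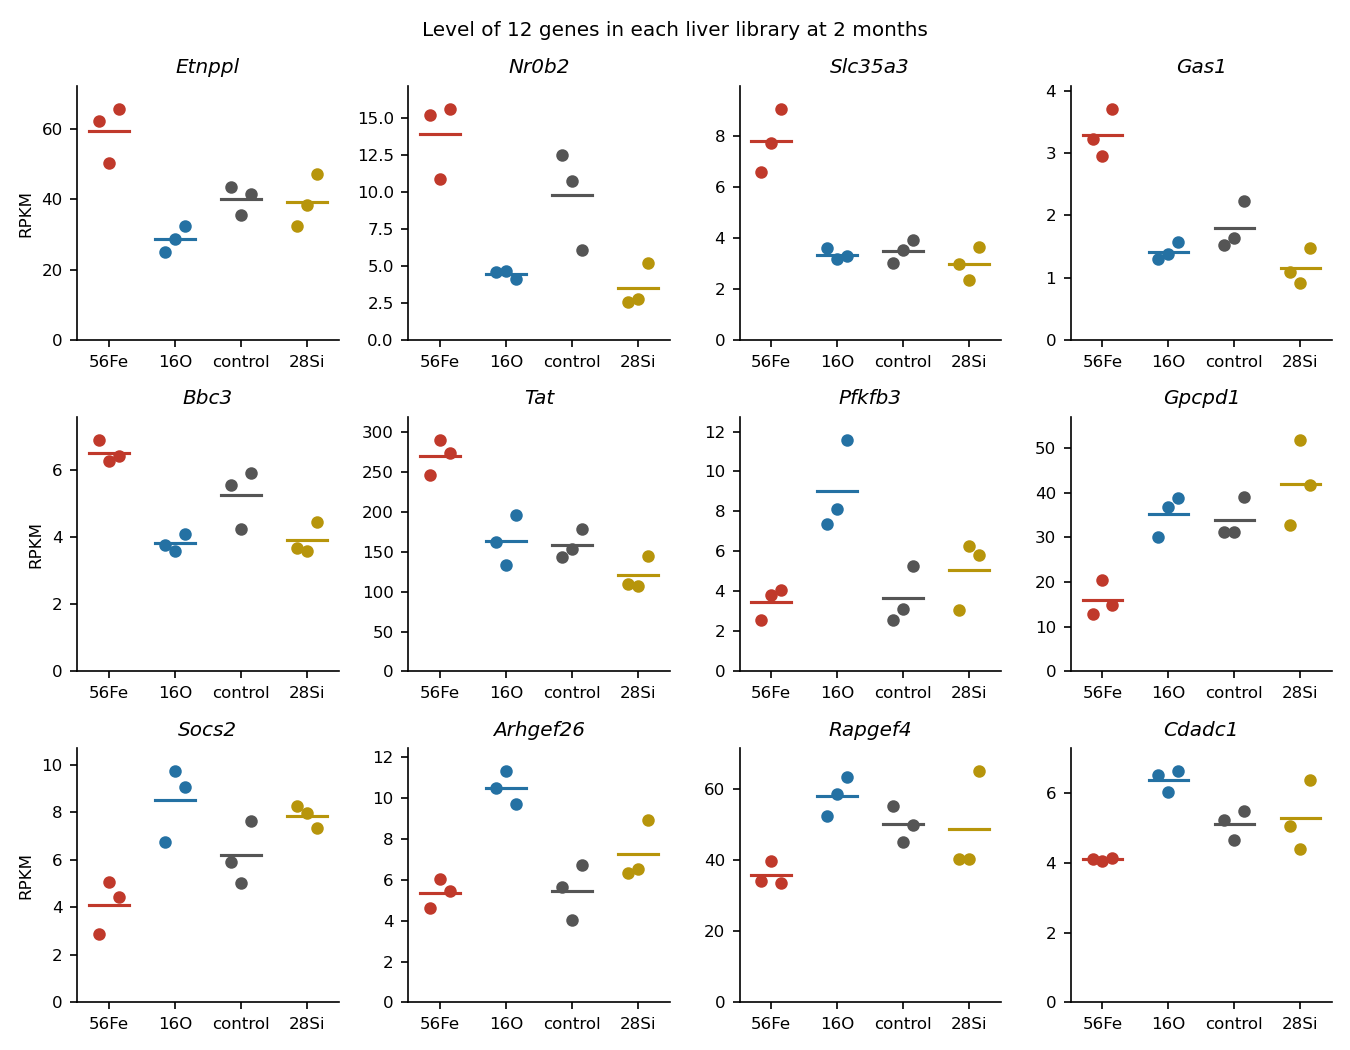
RPKM (y axis, from 0) of 12 genes in each liver library at 2 months, with 1 point per mouse and a bar at the group mean for 56Fe, 16O, control and 28Si. In every panel the 3 56Fe points and the 3 16O points occupy separate ranges, for example 50.3 to 65.6 against 24.95 to 32.5 RPKM for Etnppl. The rule for naming genes required this of all but Tat, so the separation follows from the choice of genes.

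Among the called genes lower in 56Fe, Pfkfb3 had the largest log2 difference. It makes fructose 2,6-bisphosphate, the activator of glycolysis (chromosome 2, 11471433 to 11554077). Pfkfb3 measured 2.56, 3.84 and 4.05 RPKM in the 3 56Fe mice and 7.35, 8.13 and 11.6 RPKM in the 3 16O mice, with controls at 2.59, 3.13 and 5.28 RPKM. The 16O mice were the high group, and the 56Fe mice lay within the range of the controls or at its edge. The log2 difference was -1.38 ± 0.28 (adjusted p = 0.0499, limma). Gpcpd1, a phosphodiesterase of glycerophosphocholine, showed the opposite arrangement: it measured 12.8, 20.4 and 14.7 RPKM in the 3 56Fe mice and 30.003, 36.8 and 38.7 RPKM in the 3 16O mice with controls at 31.3, 31.2 and 38.98 RPKM, so that the 56Fe mice were the low group. Its log2 difference was -1.18 ± 0.20 (adjusted p = 0.0267, limma).

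Socs2, the feedback inhibitor induced by growth hormone, measured 2.86, 5.05 and 4.45 RPKM in the 3 56Fe mice and 6.74, 9.74 and 9.05 RPKM in the 3 16O mice (log2 difference -1.08 ± 0.21, adjusted p = 0.0443, limma). It was the 1 call among 34 growth hormone, IGF-1 and male-biased genes tested (22 above 0 and 12 below). With 0.374% of all genes called, this is too few to read as a result about the list. Cish, a related inhibitor induced by the same hormone, gave -1.35 (adjusted p = 0.251, limma), and Igf1 gave 0.18 (adjusted p = 0.586, limma). Arhgef26 measured 4.61, 6.06 and 5.47 RPKM in the 3 56Fe mice and 10.5, 11.3 and 9.74 RPKM in the 3 16O mice (log2 difference -0.99 ± 0.15, adjusted p = 0.0165, limma). Controls of Arhgef26 read 5.64, 4.02 and 6.72 RPKM, with the 56Fe mice, and it was also 1 of the 4 genes called in 16O against control. Rapgef4, the cAMP-activated exchange factor EPAC2, measured 34.2, 39.7 and 33.5 RPKM in the 3 56Fe mice and 52.4, 58.7 and 63.4 RPKM in the 3 16O mice (log2 difference -0.73 ± 0.12, adjusted p = 0.0244, limma). The 3 Rapgef4 transcripts with the highest RPKM were non-coding processed transcripts. Rapgef4_6, Rapgef4_7 and Rapgef4_4 gave log2 differences of -0.32, -1.48 and -0.80. For Arhgef26 the protein-coding Arhgef26_5 gave -0.34. The retained-intron Arhgef26_4 gave -1.23 and the processed transcript Arhgef26_3 gave -1.35. None of these transcripts passed on its own.

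The histone demethylase gene Phf8 measured 2.80, 2.69 and 3.45 RPKM in the 3 56Fe mice and 4.84, 6.66 and 5.60 RPKM in the 3 16O mice (log2 difference -0.94 ± 0.14, adjusted p = 0.0165, limma). For Phf8 the leading transcript Phf8_3 gave a log2 difference of 0.26, opposite in sign to the gene, and limma-voom gave -0.47 for the gene (adjusted p = 0.18). Cdadc1, a cytidine deaminase family gene, measured 4.12, 4.07 and 4.14 RPKM in the 3 56Fe mice and 6.51, 6.04 and 6.64 RPKM in the 3 16O mice, with a spread within each group far smaller than the gap between them (log2 difference -0.66 ± 0.10, adjusted p = 0.0191, limma). Slc25a30, a mitochondrial carrier, Pwwp2a, a reader of H2A.Z nucleosomes, and Fam160a2 differed by -0.81, -0.70 and -0.69 (log2, adjusted p = 0.0374, 0.0374 and 0.0378, limma). Limma-voom also ended the calls of Cdadc1 (-0.47, adjusted p = 0.063), Rapgef4 (-0.48, adjusted p = 0.0747), Fam160a2 (-0.41, adjusted p = 0.0892) and Rpl21 (-0.94, adjusted p = 0.117). The long non-coding gene Gm2788 measured 5.31, 6.67 and 4.82 RPKM in the 3 56Fe mice and 9.15, 10.3 and 12.9 RPKM in the 3 16O mice (log2 difference -0.96 ± 0.17, adjusted p = 0.0374, limma). Gm2788 is annotated as antisense and the library kit was not stated to mark strand, so reads from the opposite strand cannot be told apart.

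The large-subunit ribosomal protein genes Rpl10 and Rpl21 also were called lower, at 5.03, 3.83 and 4.17 RPKM in the 3 56Fe mice and 7.91, 7.98 and 8.33 RPKM in the 3 16O mice for Rpl10 and at 1.52, 1.28 and 1.04 RPKM in the 3 56Fe mice and 2.22, 2.86 and 2.61 RPKM in the 3 16O mice for Rpl21 (adjusted p = 0.014 and 0.0423, limma). Both have processed copies elsewhere in the genome and their RPKM was low for ribosomal protein genes, so these values are uncertain. Among the 3 transcripts with the highest RPKM of each gene, the protein-coding Rpl10_10 and Rpl21_5 gave log2 differences of 0.09 and 0.38. The retained-intron transcripts Rpl10_2 and Rpl21_2 gave -0.74 and -0.87. None of these transcripts passed on its own, and the lower sums did not lie in those coding transcripts. Over 81 cytosolic ribosomal protein genes tested, 50 had a difference above 0 and 31 below, with a median of 0.07. In 9 of the 81 every 56Fe mouse lay below every 16O mouse (8.52% of all genes). That median was -0.17 with 16O replicate 3 alone and -0.13 with the covariate, so the direction of the family changed with the fit.

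For 10 of the 19 genes called lower in 56Fe (52.6%), the transcript with the highest RPKM was not protein-coding, compared with 2 of the 24 called higher (8.33%) and 15.7% of all genes tested. The types were retained introns in 5, processed transcripts in 3 and antisense transcripts in 2. The retained-intron transcript Gpcpd1_1 measured 2.81, 5.10 and 3.29 RPKM in 56Fe and 7.50, 8.35 and 9.25 RPKM in 16O, and Rpl10_2 measured 1.48, 1.48 and 1.59 RPKM in 56Fe and 2.92, 2.72 and 2.41 RPKM in 16O. In Gpcpd1_1 and in Rpl10_2 every 16O mouse, replicate 3 included, was above every 56Fe mouse, although neither transcript passed on its own (adjusted p = 0.284 and 0.201, limma). Among the nuclear long RNAs, Malat1 measured 925, 848 and 957 RPKM in the 3 56Fe mice and 1577, 1390.1 and 1162 RPKM in the 3 16O mice (log2 difference -0.62, adjusted p = 0.131, limma) and Neat1 138, 139 and 156 RPKM in the 3 56Fe mice and 296, 199 and 146 RPKM in the 3 16O mice (log2 difference -0.54, adjusted p = 0.266, limma). Of the 8 tested, 7 had a difference below 0 and none passed in limma (3 at an unadjusted p under 0.05, against 15.7% of all genes) or limma-voom. The median was -0.36, or 0.06 with 16O replicate 3 alone. The part of the library difference in these calls was not tested.

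Of the 43 genes, 14 fell outside the rule by which genes are named here. They are listed for completeness. Higher in 56Fe were Atp2a2, the calcium pump of the endoplasmic reticulum, Psen2, a subunit of gamma-secretase, Cebpa, Midn, Mn1, Gnl3l, Ptpn9 and Rnf187, with log2 differences of 0.48 to 0.93. Lower were Ttc39c, Zfp445, Gga3, Rhbdd2, Prr3 and the antisense gene Gm15318, with log2 differences of -0.996 to -0.74. Limma-voom ended the calls of Psen2, Midn, Mn1, Gnl3l, Ptpn9, Rnf187, Gga3, Prr3 and Gm15318, with adjusted p of 0.0718 to 0.347.

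The place of the 43 genes relative to the controls is given as a description, because both ions share the same 3 control mice. The genes were also chosen for a gap between the ions, which by itself favours a control mean between them. No share over all genes is given beside these counts, so they do not show that the ions acted in opposite directions. For 40 genes the ion means lay on opposite sides of the control mean, and for 3 both lay above it. The 16O mean was the farther from control in 27 genes and the 56Fe mean in 16. Against control, 1 gene was called in 56Fe (0.00869%) and 4 in 16O (0.0348%), namely Arhgef26, Stat2, Snhg12 and Hbb-bs.

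Antioxidant genes controlled by NRF2, which supply glutathione and detoxify reactive compounds, leaned the same way without a call. Of 31 tested, 28 had a difference above 0, 12 did not overlap (background 9.24%), and none passed in limma (11 at an unadjusted p under 0.05, 0 with limma-voom). The median was 0.29, and 0.06 with 16O replicate 3 alone. Gclm, the regulatory subunit of glutathione synthesis, measured 32.4, 32.8 and 35.2 RPKM in the 3 56Fe mice and 17.8, 20.7 and 24.5 RPKM in the 3 16O mice (log2 difference 0.65 ± 0.13, adjusted p = 0.0534, limma). Catalase (Cat) gave 0.35 and the glutathione transferases Gsta3 and Gstm1 gave 0.36 and 0.37. Pericentral genes had 27 of 30 differences above 0 (median 0.29, and 0.02 with 16O replicate 3 alone), and complement and coagulation genes 38 of 46 (median 0.14, and -0.01). None of the pericentral or complement and coagulation genes passed in limma (10 and 11 at an unadjusted p under 0.05, 0 with limma-voom). The share of all genes with an unadjusted p under 0.05 was 15.7%.

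**Figure D4:**
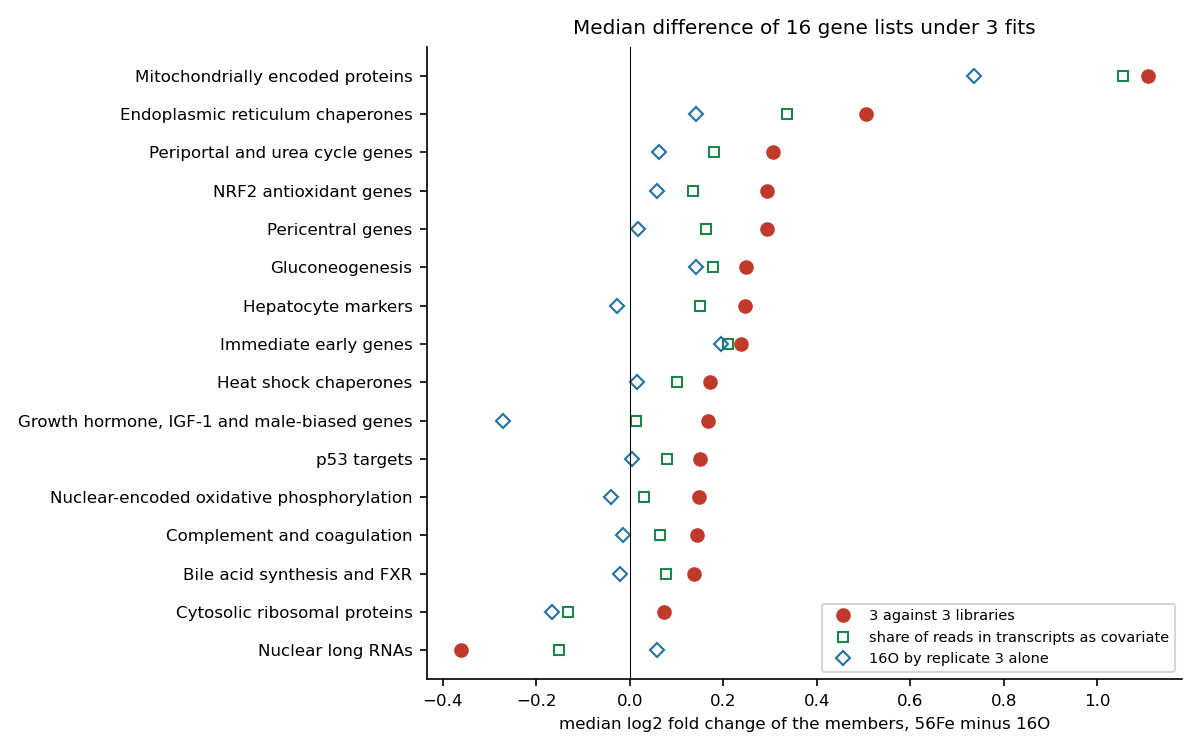
Median log2 fold change (56Fe minus 16O, x axis) of the members of 16 gene lists under 3 fits: 3 against 3 libraries (red), with the share of reads in transcripts as a covariate (green), and with 16O replicate 3 alone (blue). The mitochondrially encoded genes keep a median of 0.74 or more under all 3, whereas most other lists are nearest to 0 with 16O replicate 3 alone.

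The 10 listed genes of growth factor, survival and nuclear receptor signalling (Ahr, Akt1, Bcl2l1, Bcr, Igf1, Igf1r, Nfkb1, Nr1h3, Ppara and Rxra) were all tested, and 0 of 10 passed. Their log2 differences ran from -0.12 to 0.32, and the smallest adjusted p was 0.203 (limma).

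Other mice answer whether the 2-month differences were present at other times. At 1 month 23 genes differed between 56Fe and 16O (0.199%), at 4 months 8 (0.0688%), and at 9 and 12 months none in limma (1641 and 349 at an unadjusted p under 0.05). Of the 43 genes, 38 had the same sign at 1 month (61% of all genes did), 34 at 4 months (50.6%), 29 at 9 months (50.3%) and 31 at 12 months (56.2%). Midn, Cebpa, Mn1 and Pfkfb3 were called at both 1 and 2 months. The genes that follow are examples of the 43, whose 2-month difference was the ground of their choice. Pfkfb3 differed by -1.99, -1.56, 0.49 and -2.24 at 1, 4, 9 and 12 months, Arhgef26 by -1.05, -0.86, 0.15 and -1.19, and Socs2 by -0.78, -0.77, 0.29 and -1.53. Each of these 3 had a difference below 0 at 1, 4 and 12 months and above 0 at 9 months. Of these values only that of Pfkfb3 at 1 month passed. Etnppl gave -0.12, -0.39, 0.24 and 0.82, Nr0b2 0.20, 0.61, 1.16 and 1.60, and mt-Nd4l 0.52, 1.24, 1.46 and 0.31. Nr0b2 and mt-Nd4l thus had a difference above 0 at each of these other times, whereas that of Etnppl changed sign. None of these 3 genes passed in limma at any time other than 2 months. The median of the chaperone list was -0.12, 0.08, -0.21 and 0.09 at these times.

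A test of the difference itself, 2 months against the mean of the other 4 times over all 60 libraries, called 0 of 12731 genes in limma (1133 at an unadjusted p under 0.05). Of the 43 genes, 42 had an interaction of the same sign as their 2-month difference, which is partly fixed by their choice at 2 months. 

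**Figure D5:**
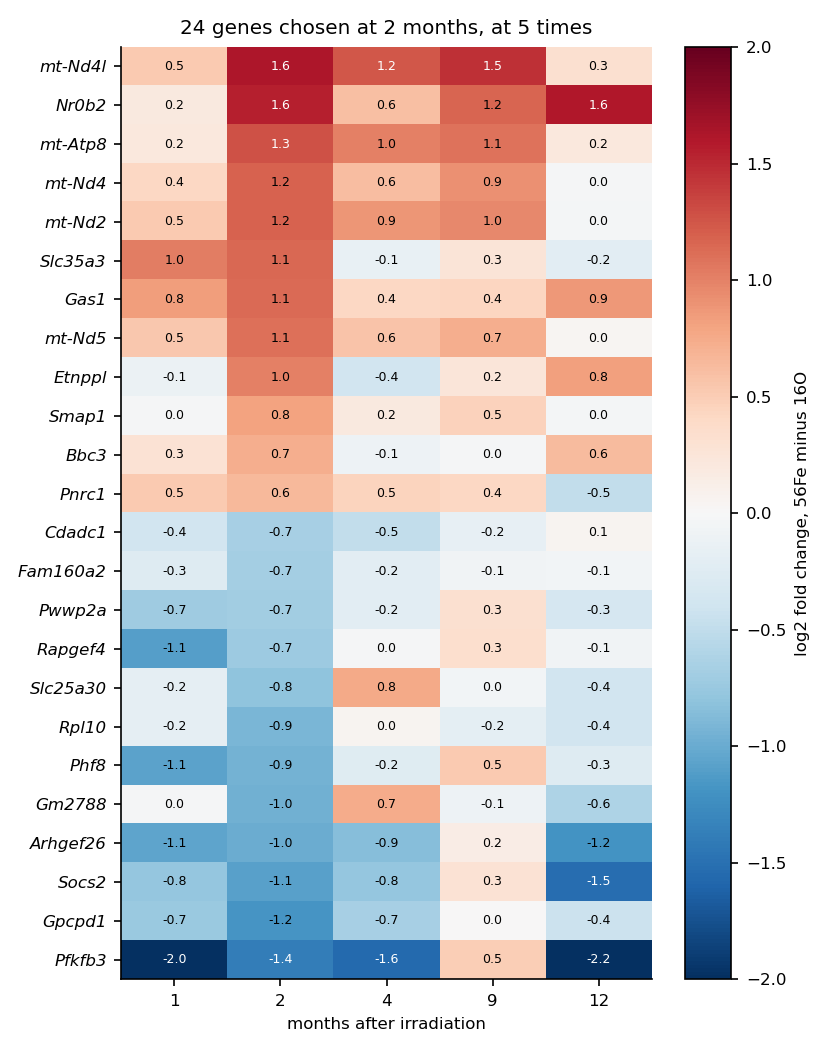
Log2 fold change (56Fe minus 16O, colour and printed value) of the 24 genes named by level and size at 2 months, by months after irradiation (x axis); the colour scale ends at -2 and 2. The 2-month column chose the genes, and Pfkfb3 at the bottom is below 0 in all columns but 9 months.

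At the level of single transcripts 4 of 32344 differed (0.0124%; 3931 at an unadjusted p under 0.05), and limma-voom called 0. All 4 were of low level, outside the naming rule, and are named because they are so few. The protein-coding Mov10_8 (ENSMUST00000166979), of an RNA helicase gene, was listed at 0, 0 and 0 RPKM in 56Fe and 1.49, 1.08 and 0.915 RPKM in 16O, with controls at 1.89, 1.61 and 1.58 RPKM (adjusted p = 0.00157, limma). Jade1_7 (ENSMUST00000026865) was listed at 0, 0.173 and 0 RPKM in 56Fe and 2.66, 6.41 and 2.49 RPKM in 16O, with controls at 2.84, 4.24 and 1.23 RPKM (adjusted p = 0.0366, limma). For these 2 the 56Fe mice were at or next to 0 while 16O, control and 28Si mice were not. Polr2m_4 (ENSMUST00000233263), of an RNA polymerase II-associated gene, was listed at 3.75, 7.17 and 7.28 RPKM in 56Fe and 0.210, 0 and 0 RPKM in 16O and at 0 in all control and 28Si mice (adjusted p = 0.0294, limma). The retained-intron transcript Pabpc4_3 (ENSMUST00000146156) was listed at 0.703, 0.413 and 0.752 RPKM in 56Fe and 2.24, 2.30 and 2.19 RPKM in 16O (adjusted p = 0.0366, limma). How the reads of a gene are divided among its transcripts depends on the authors' estimation, so these 4 are uncertain.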

How the data were processed

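Liver RNA depleted of ribosomal RNA was sequenced as paired 50-base reads. After trimming, the authors mapped reads in CLC Genomics Workbench 12.0.3 (GRCm38) and deposited RPKM per transcript (123811 transcripts, 38204 genes by name), with group means that were not used. Each of the 12 libraries at 2 months held 14775718 to 24781307 mapped read pairs, recovered from RPKM steps of genes with 1 transcript (at least 99.77% of low values whole within 0.02 reads). Low genes rest on few reads, and the number of mice limits the precision.

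RPKM was summed per gene and divided by TMM-type factors (trimmed, no weights). A gene was kept if 3 of the 12 libraries reached 0.5 RPKM, and was tested with limma 3.58.1 (R 4.3.3, trend, two-sided) on log2(RPKM + 0.1), which understates changes of low genes. Control, 56Fe, 16O and 28Si libraries shared the fit. p-values were adjusted by Benjamini-Hochberg over all genes. Library values in the text are RPKM as deposited, and overlap of groups was read after scaling. Genes past the threshold with a mean log2 level of at least 1 and no overlap were named, up to 12 in each direction, with list members that passed and up to 4 abundant members of each list discussed. Further members (Creld2, Syvn1, Derl3, Xbp1, Edem1, Cyp7a1, Cyp8b1, Cish, Gclm, Cebpa and Alas1) were chosen after their values were seen. Members and lists were chosen with earlier results of these data known. Alternatives are in the closing section. The test was tried on simulated data of 11279 genes. It called 78 of 100 genes changed by a fold of 2, and 9 unchanged genes. The simulation held no difference in the share of reads in transcripts between libraries, so it cannot speak to that difference here. Mice were separate animals, and replicate numbers paired nothing across groups. Promoters were RefSeq sequences, matched by symbol.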

Additional observations from a re-analysis of the deposited data

How the results depend on the processing

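All 43 genes kept their direction under every alternative in which they were tested. Their groups did not overlap after scaling, so leaving out a library could hardly change a direction. The kept direction is therefore no sign of stability. Genes past the adjusted p at any fold numbered 10 with RPKM as deposited, 2 with no filter, 7 with only the 6 56Fe and 16O libraries, 25 with no 28Si libraries, 22 without control replicate 3, 26 with mitochondrial genes removed, 1 with the transcript share as a covariate and 0 with 16O replicate 3 alone (a 1-library arm, where few calls can be made), against 43. At a fold of at least 2 the counts were 1, 5, 5, 0 and 0 with no filter, the 6 libraries, mitochondrial genes removed, the covariate and 16O replicate 3 alone, against 12. Leaving out 1 56Fe or 16O library gave 1 to 1089 genes at any fold and 0 to 67 at a fold of at least 2, and the covariate, mitochondrial and single-library settings were chosen after the data were seen. Limma-voom called 46 genes, 27 of them among the 43, and neither it nor RLE or upper-quartile scaling, larger pseudocounts, the stricter filter or the robust fit moved either gene count by over 1.5 times. Transcripts numbered 8 and 15 at pseudocounts of 0.5 and 1, 30 with no filter, 0 with the 6 libraries, 1 with no 28Si libraries, 0 with limma-voom, 20 with 16O replicate 3 alone and 3 to 235 leaving out 1 library (235 without 16O replicate 3, 8 without 56Fe replicate 2 or 3, 7 without 16O replicate 1), against 4. Interaction calls were 0 to 12 leaving out 1 library (12 without 16O replicate 3), against 0. The cause was not tested, except that settings with fewer libraries have a less precise spread by construction.

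The replicate block gave 45 genes at any fold (31 among the 43), 10 at a fold of at least 2, 2 transcripts and 1 interaction call. Numbers shared by the groups do not pair the mice, since deviations of same-numbered 56Fe and 16O libraries correlated at 0.0757, -0.0296 and 0.102.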

Other observations

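In the fit of 3 against 3 libraries, several liver gene groups not described above leaned towards 56Fe without a call. Of all genes tested, 50.2% were higher in 56Fe. Of 19 negative acute phase genes tested 18 had a log2 difference above 0 (median 0.27), of 34 cytochromes P450 of foreign compounds 27 (median 0.24), of 36 positive acute phase genes 30 (median 0.21), and of 31 haem and iron genes 26 (median 0.15). The drug-metabolising Cyp3a11 and Cyp2c29 gave 0.56 and 0.51, and the apolipoprotein Apoa2 gave 0.43. Of 19 ATF4 amino acid stress genes 15 were above 0 (median 0.26), of 29 clustered histone genes 23 (median 0.25), and of 15 Kupffer cell markers 12 (median 0.24). With 16O replicate 3 alone the medians of the 7 lists were 0.02, -0.0011, -0.15, 0.04, 0.12, -0.15 and 0.12 in the order given. None of their genes passed in limma or limma-voom, and 4, 12, 4, 10, 3, 7 and 3 of them, in that order, had an unadjusted p under 0.05 in limma. That held for 15.7% of all genes, and several of these counts are near or below that share. Against the lean of the haem list, Alas1, the first enzyme of haem synthesis, measured 14.8, 72.9 and 66.1 RPKM in the 3 56Fe mice and 104, 246 and 170.4 RPKM in the 3 16O mice (log2 difference -2.01 ± 0.55, adjusted p = 0.127, limma), every 56Fe mouse below every 16O mouse.

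Other groups had medians near 0. Of 43 interferon-induced genes tested 27 had a log2 difference above 0 (median 0.06), of 38 DNA repair genes 18 (median -0.02), and of 17 cell cycle genes 7 (median -0.02). Of 18 core clock genes 8 had a difference above 0 (median -0.02), and of 34 insulin and PI3K-AKT genes 19 (median 0.03). None of the genes in these 5 lists passed in limma or limma-voom, and 5, 4, 3, 3 and 5 of them, in the same order, had an unadjusted p under 0.05 in limma. That held for 15.7% of all genes.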
